A study of Mus musculus with 24 samples.

Results

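The lungs of 2 inbred mouse strains, C57BL/6J and A/J, were compared on 8 of the 24 arrays of the series, 4 arrays per strain. The arrays were chosen by their labels: every lung array of either strain entered, and within a strain there was 1 array each for the control and for 1 h, 12 h and 72 h after irradiation. A strain difference was therefore taken within 4 pairs of arrays, each pair from the same time. All mice were females of 12 to 13 weeks. Irradiated mice had received 10 Gy of gamma rays to the thorax only, and control mice none. Each array carried lung RNA pooled from 3 mice, labelled with Cy3, against a common reference mixed from commercial RNA of several organs and labelled with Cy5. The 4 lung arrays of a further strain, C3H/HeMs, pooled and labelled in the same way, add to the estimate of the spread and are given beside the results. The 12 skin arrays, from mice of the same strains given 30 Gy to the hind leg, are used to ask whether a strain difference was also present in another tissue.

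An inbred strain is fixed for 1 allele at nearly every gene, so that its mice are close to genetic copies of each other and differ from another strain at many genes. A/J mice are known for a small deletion in Hc, the gene of complement component C5, which leaves them without this protein. C57BL/6J mice are known for lacking the class II antigen chain H2-Ea, for a deletion in the mitochondrial gene Nnt, and for developing lung fibrosis after thoracic irradiation. Lung RNA comes from alveolar epithelium, capillary endothelium, fibroblasts, smooth muscle, airway cells and resident as well as circulating immune cells. In such whole tissue, fewer cells of a type and less RNA per cell cannot be told apart.

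Levels below are log2 ratios of lung over reference, centred on each array's median, and differences are C57BL/6J minus A/J, so that a difference of 1 is 2-fold. The reference is the same RNA mixture for every array, and a negative level means less RNA than in that mixture, not absence. The arrays of both strains looked like lung. Ager, a marker of alveolar type 1 cells, lay between 2.86 and 3.32 on all 8 arrays. The 8 measured alveolar type 2 and club cell genes had mean levels of 1.64 to 2.44 (A/J arrays) and 1.78 to 1.97 (C57BL/6J arrays). For 12 heart muscle genes these were -3.21 to -2.76 and -3.22 to -2.84. The A/J arrays at 12 h and 72 h stood apart from the other 6. Their levels correlated across features at 0.939 with each other and at 0.796 to 0.842 with the other 6 arrays, which correlated at 0.899 to 0.959 among themselves. They also held deposited ratios of exactly 0 for 674 and 607 of 9275 probes, where the A/J control and 1 h arrays held 1 and 11 and the 4 C57BL/6J arrays 1 to 8. The 12 h and 72 h arrays of C3H/HeMs, which enter the estimate of the spread, went with them: they held 183 and 115 exact zeros, and correlated at 0.891 to 0.915 with the late A/J arrays and at 0.825 to 0.872 with the C57BL/6J arrays. The control and 1 h pairs were therefore also examined alone, in a fit of all 12 arrays with a separate strain difference for the late ones. Each strain had 1 pool at each time, so the spread behind every p-value is that of pools from different times and strains. Across features the strain differences of the control and 1 h pairs correlated at 0.533, and those of 12 h and 72 h at 0.681. Between early and late pairs the correlations were 0.0604 to 0.187. The fits treat the 4 pairs as independent, so their standard errors and p-values may be too small.

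Of 8750 features (genes, or single probes without a gene name), 322 (3.68%) differed between the strains in limma at an adjusted p under 0.05. C57BL/6J was higher for 171 (1.95%) and lower for 151 (1.73%), and 140 (1.6%) differed at least 2-fold, 93 of them higher and 47 lower. After quantile normalization 121 were higher and 160 lower. The count depended on single arrays: it was 42 to 384 without 1 of the 8. It was lowest when C57BL/6J 72 h was left out, and rose above 322 only when C57BL/6J 1 h was. Fitted on the 8 arrays alone, with a spread from fewer arrays, it was 17. All 322 had the same direction in each of the 4 pairs, where over all features 13.0% had 4 pairs higher and 17.7% had 4 pairs lower. In 284 of the 322 the 4 C57BL/6J arrays and the 4 A/J arrays did not overlap, which was the case for 15.1% of all features, 5.95% with C57BL/6J above and 9.14% with C57BL/6J below. The size of the 322 differences ran from 0.44 to 3.21 with a median of 0.93. On control and 1 h alone 248 features passed (2.83%), 72 higher (0.823%) and 176 lower (2.01%), and these included 87 of the 322. This count was 6 to 16 when 1 of the 4 early arrays of both strains was left out, and 11 when the control and 1 h arrays were fitted with no others. All 322 had the same direction there, which follows from their having 1 direction in each of the 4 pairs. The median ratio of the early difference to the 4-pair mean, which includes the early pairs, was 0.82. Neither value is a separate check.

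The higher calls moved with the exact zeros. Of the 171 higher calls, 91 had a ratio of exactly 0 on the A/J 12 h or 72 h array, against 1 of the 151 lower calls. The 772 features with such a zero had a median difference of 0.55 in the control pair, 0.22 at 1 h, 1.31 at 12 h and 0.89 at 72 h, while the other features had medians of -0.01, 0.00, -0.23 and -0.16. Of these 772 features, 10.6% had a gene symbol, against 73.0% of the others. With exact zeros set to missing, 177 features passed, 63 higher and 114 lower.  Of the 157 called features with a full gene name, 3 of the 48 higher and 0 of the 109 lower had such a zero.

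**Figure D1:**
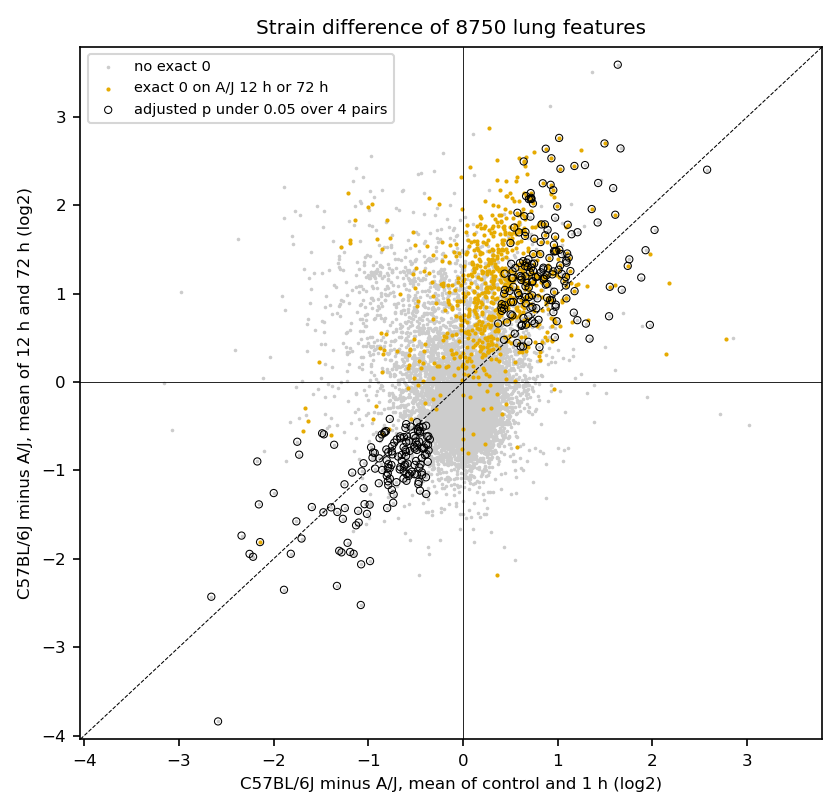
Each point is 1 of 8750 features, with the C57BL/6J minus A/J difference (log2) averaged over control and 1 h on the x axis and over 12 h and 72 h on the y axis. Features with an exact 0 on a late A/J array (yellow) lie above the dashed line of equal differences in 684 of 772 cases. The 322 features past the threshold (black rings) lie in the quadrants where both differences share a sign, which follows from their having 1 direction in all 4 pairs.

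Complement component C5 showed the largest difference among named genes higher in C57BL/6J. Hc had levels of -0.08, 0.14, 0.32 and -0.07 in A/J (control, 1 h, 12 h and 72 h) and 1.66, 2.25, 1.55 and 1.69 in C57BL/6J. The groups lay far apart at every time, and the C57BL/6J lungs held 3.27-fold more. The difference over 4 pairs was 1.71 ± 0.16 (SE of the 12-array fit, limma adjusted p = 0.00186). On control and 1 h it was 1.93 ± 0.18 (adjusted p = 0.0126). C3H/HeMs, between 1.06 and 1.41, lay below C57BL/6J and above A/J on all 4 arrays. Of 20 complement and coagulation genes measured, Hc was higher, 1 was lower and 18 did not pass, with a list median of -0.04 against -0.07 over all features. The lower one was Cd59a, which encodes a membrane inhibitor of the terminal complement complex that C5 starts. Cd59a was at -1.31, -0.96, -1.03 and -0.90 in A/J and -1.66, -1.52, -1.65 and -1.43 in C57BL/6J, a difference of -0.51 ± 0.11 (SE, adjusted p = 0.0371). C3H/HeMs was higher than both, from -0.16 to 0.24. Fgg, the fibrinogen gamma chain, was next, at 0.61 ± 0.18 (SE) without passing (adjusted p = 0.089); both late A/J arrays were at the lower limit of the ratio, so that its size is not exact.

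Of 5 measured genes with well-known variants in A/J or C57BL/6J, Hc and Alad differed and 3 did not pass. H2-Ea, the class II chain that C57BL/6J is known to lack, gave -1.25, -1.30, -0.66 and -0.70 in A/J and -1.22, -1.24, -1.60 and -1.26 in C57BL/6J. Its groups overlapped, with a difference of -0.35 ± 0.19 (SE, adjusted p = 0.269) over 4 pairs and 0.05 ± 0.12 on control and 1 h. Nnt, which codes for a proton-pumping transhydrogenase of mitochondria, differed by -0.17 ± 0.12 (SE, adjusted p = 0.398), and its C57BL/6J levels, -2.26 to -1.94, overlapped those of A/J, -2.22 to -1.74. Naip5, an inflammasome receptor for bacterial flagellin whose A/J allele makes macrophages permissive for Legionella, was at -0.04 ± 0.12 (SE, adjusted p = 0.875). What part of each transcript the probes cover was not analysed here. A deletion elsewhere need not show only where the rest of the transcript is still made. Whether the H2-Ea probe reports H2-Ea RNA was not tested.

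Alad, the enzyme that joins aminolevulinate into porphobilinogen and a gene whose copy number is known to vary between inbred strains, had levels of -0.83, -0.91, -0.04 and -0.37 in A/J and -1.97, -2.16, -2.09 and -2.18 in C57BL/6J. The C57BL/6J arrays lay within a narrow band below every A/J array, 2.94-fold lower, at -1.56 ± 0.16 (SE, adjusted p = 0.00262). C3H/HeMs, from -0.81 to -0.11, lay with A/J. Hebp1, a heme-binding protein, was at -0.29, -0.43, -0.29 and -0.40 in A/J and -1.31, -1.51, -1.36 and -1.73 in C57BL/6J, which is 2.18-fold lower (-1.13 ± 0.10 SE, adjusted p = 0.00186). Of the 13 heme and iron genes measured these 2 were lower, 0 higher and 11 did not pass, with a median of -0.16. The next smallest p, for Hmox1, the inducible heme oxygenase, was 0.0839 after adjustment, with a difference of -0.41 ± 0.11 (SE).

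Macrophage genes were split. Chil3, which codes for the chitinase-like protein Ym1 of alveolar and alternatively activated macrophages, was at 2.29, 1.10, 2.13 and 2.14 in A/J and 3.82, 3.33, 3.85 and 2.77 in C57BL/6J. All 4 C57BL/6J arrays lay above all A/J arrays, with a difference of 1.53 ± 0.30 (SE, adjusted p = 0.0329), and the A/J 1 h array lay apart below its group. This call held without the A/J 72 h array and was lost without any other 1 of the 8. C3H/HeMs overlapped both strains, from 1.46 to 3.03. Mrc1, the mannose receptor, went the other way, at 0.93, 0.91, 1.36 and 1.20 in A/J and 0.48, 0.42, 0.32 and 0.31 in C57BL/6J (-0.71 ± 0.13 SE, adjusted p = 0.0259). Cd68, a lysosomal glycoprotein of macrophages, was at 1.13, 0.80, 1.36 and 1.28 in A/J and 0.59, 0.53, 0.63 and 0.36 in C57BL/6J (-0.61 ± 0.12 SE, adjusted p = 0.0347). For both genes the strains did not overlap. Of 13 macrophage and monocyte genes, 1 was higher, 2 lower and 10 did not pass, and the mean level of the list per array lay between -0.17 and 0.16 for A/J and between -0.16 and 0.03 for C57BL/6J.

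Among neutrophil genes 2 passed, Camp and Ngp, both lower in C57BL/6J. Camp, the precursor of the antimicrobial peptide cathelicidin, was at -0.09, -0.48, -0.72 and -1.12 in A/J and -2.68, -2.23, -1.73 and -1.91 in C57BL/6J. The strains were farthest apart in the control pair, and the difference, -1.54 ± 0.27 (SE, adjusted p = 0.0246) over all pairs, was -2.17 ± 0.20 on control and 1 h (adjusted p = 0.0126). Ngp, neutrophilic granule protein, followed the same course, at -0.20, -1.20, -1.13 and -1.51 in A/J and -2.73, -2.13, -2.11 and -2.17 in C57BL/6J (-1.28 ± 0.29 SE, adjusted p = 0.0489). The other 7 of 9 neutrophil genes did not pass. Of these, Mpo was at 0.04, Lcn2 at 0.05 and Ltf at 0.43 ± 0.33 (SE, limma adjusted p = 0.425), with 2 of 4 pairs higher for Ltf. S100a8 was at -1.02 ± 0.51 (SE, adjusted p = 0.251) with 3 of 4 pairs lower. The call of Camp was lost without the A/J control, 1 h or 12 h array. The list median was -0.97 in the control pair and 0.29, -0.45 and -0.46 at 1 h, 12 h and 72 h.

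Jchain, which joins IgA and IgM into polymers in plasma cells, was the second lowest named gene in C57BL/6J. Its levels were -0.94, -1.50, -1.13 and -0.95 in A/J and -2.95, -3.27, -3.20 and -3.58 in C57BL/6J, a 4.35-fold difference (-2.12 ± 0.21 SE, adjusted p = 0.00217). C3H/HeMs lay between both groups, from -2.07 to -1.32, and overlapped A/J. Cd22, an inhibitory receptor of mature B cells, was at 0.31, 0.04, -0.06 and -0.16 in A/J and -0.48, -1.07, -1.05 and -0.76 in C57BL/6J (-0.87 ± 0.14 SE, adjusted p = 0.0198). Defining markers of B cells did not pass: Ms4a1 differed by 0.45, Cd79a by 0.15 and Cd79b by 0.09. Over 12 B cell genes the median was 0.07, with -0.14 and -0.24 in the control and 1 h pairs and 0.22 and 1.07 at 12 h and 72 h. Pik3ap1, an adaptor that links B cell and Toll-like receptors to PI3 kinase, was at 0.56, 0.54, 0.40 and 0.19 in A/J and -1.63, -1.27, -1.14 and -0.78 in C57BL/6J (-1.63 ± 0.19 SE, adjusted p = 0.0051).

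Class II antigen presentation, with 8 genes and a median of 0.28, held 1 call, higher in C57BL/6J. H2-Eb1, the beta chain of the E molecule, was at -0.74, -1.11, -2.07 and -2.88 in A/J and -0.16, 0.01, -1.12 and -1.25 in C57BL/6J. Levels were lower on the later arrays of both strains and the groups overlapped, but C57BL/6J was higher within every pair (1.07 ± 0.19 SE, adjusted p = 0.0247). On control and 1 h the difference was 0.85 ± 0.22 without passing (adjusted p = 0.102). H2-Ob and H2-Aa, also higher in 4 of 4 pairs, were at 0.99 ± 0.26 and 0.39 ± 0.18 (SE) with adjusted p of 0.076 and 0.215. The other 5 genes were between -0.35 and 0.52, and Cd74, the invariant chain that all class II molecules need, was at 0.01.

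Ifi207 and Ifi203 belong to the interferon-inducible Ifi200 family of DNA sensors and cell cycle regulators. Ifi207 was at 0.30, 0.06, 0.95 and 0.40 in A/J and -1.06, -0.79, -0.95 and -0.88 in C57BL/6J (-1.35 ± 0.17 SE, adjusted p = 0.00659). Ifi203, its neighbour on the chromosome, gave -0.93 ± 0.18 (SE, adjusted p = 0.0305), but its 2 probes differed in size, at -0.35 and -1.52. These genes are close copies of each other, so a probe may take up RNA of several. Ifi203 was the 1 call among 18 interferon response genes, a list without Ifi207, and the list median was -0.15. Trim30d, of another cluster of near copies, was higher in C57BL/6J, at 0.34, 0.04, -0.88 and -1.08 in A/J and 0.74, 1.06, 1.03 and 0.75 in C57BL/6J (1.29 ± 0.24 SE, adjusted p = 0.0277). The difference came mostly from the late A/J arrays, being 0.71 ± 0.18 on control and 1 h (adjusted p = 0.0943).

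Among signalling proteins, Il18, a cytokine that raises interferon gamma, was at 0.83, 0.73, 1.70 and 1.04 in A/J and 0.04, 0.04, -0.18 and 0.20 in C57BL/6J (-1.05 ± 0.19 SE, adjusted p = 0.0267). Ccl9, a chemokine for myeloid cells, was lower as well (-0.82 ± 0.18 SE, adjusted p = 0.0445). On control and 1 h neither passed, with Il18 at -0.74 ± 0.23 and Ccl9 at -0.63 ± 0.25 (SE, adjusted p = 0.151 and 0.231), and the 1 h pair of Ccl9 differed by -0.13. These were the 2 calls among 28 chemokines and interleukins, whose median was -0.16. Bst1, an enzyme and surface protein of myeloid and stromal cells that uses NAD, was higher, at 0.15, 0.05, -0.92 and -1.09 in A/J and 0.86, 0.78, 1.22 and 0.92 in C57BL/6J. Its difference was 1.40 ± 0.26 (SE, adjusted p = 0.0273) over all pairs and 0.72 ± 0.10 on control and 1 h (adjusted p = 0.0239). C3H/HeMs exceeded both strains, from 1.43 to 1.62. Lst1 and Sorl1, a small leukocyte protein and a sorting receptor, were lower in C57BL/6J by a difference of -1.02 ± 0.12 and -0.96 ± 0.11 (SE, adjusted p = 0.00432 and 0.00516).

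**Figure D2:**
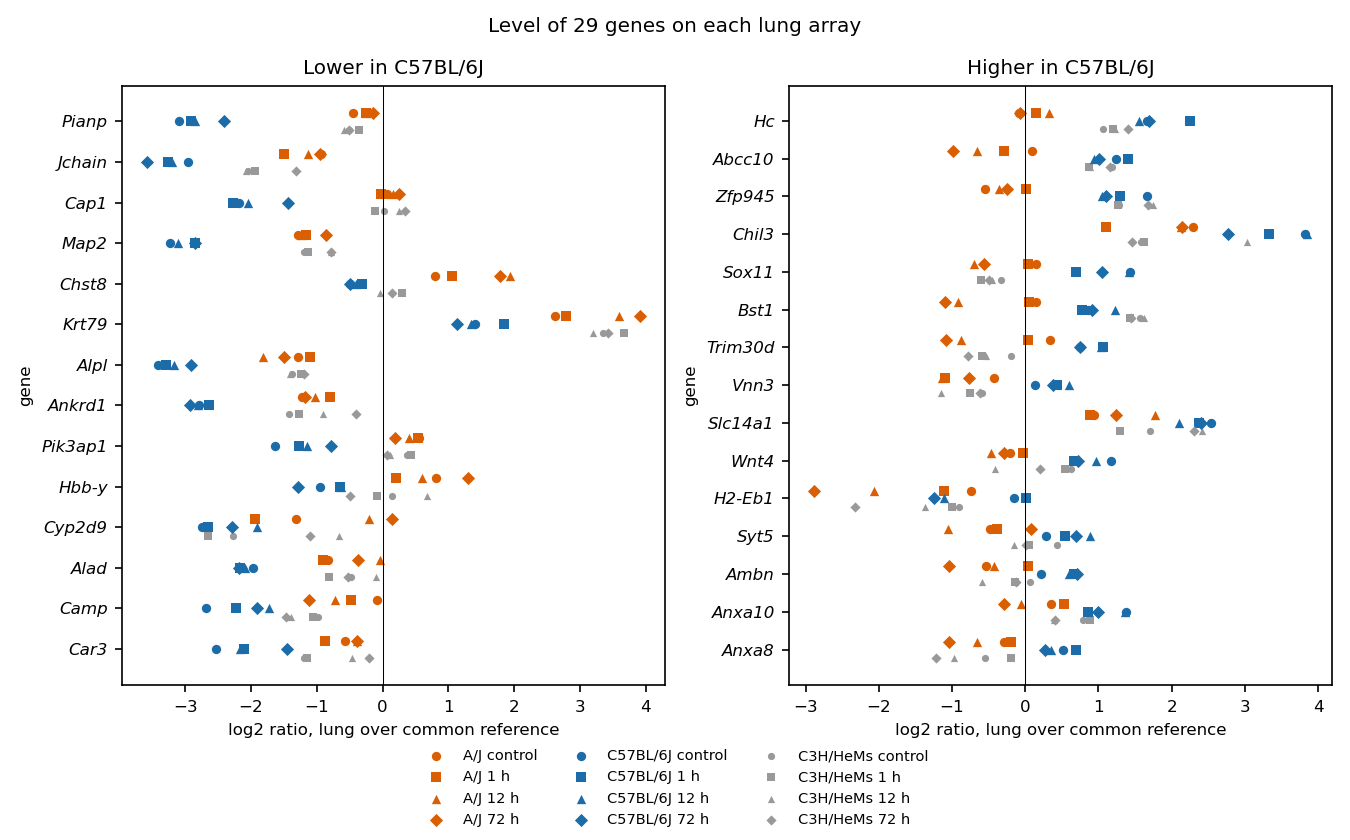
Each row is a gene and each point 1 lung array, with the log2 ratio over the common reference on the x axis, for A/J (orange), C57BL/6J (blue) and C3H/HeMs (grey) at 4 times given by the symbols. The 14 genes on the left lie lower and the 15 on the right higher in C57BL/6J; only Cyp2d9 and H2-Eb1 have overlapping groups of A/J and C57BL/6J arrays.

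The lowest named gene in C57BL/6J was Pianp. Pianp, a membrane ligand of the inhibitory myeloid receptor PILR alpha, best known from brain, was at -0.45, -0.25, -0.26 and -0.15 in A/J and -3.10, -2.92, -2.86 and -2.41 in C57BL/6J. The groups lay far apart in every pair, with a 5.83-fold difference (-2.54 ± 0.13 SE, adjusted p = 5.1e-05), and C3H/HeMs, from -0.59 to -0.36, lay with A/J. Cap1, which recycles actin monomers, was at 0.08, -0.03, 0.16 and 0.25 in A/J and -2.19, -2.28, -2.04 and -1.44 in C57BL/6J (-2.10 ± 0.12 SE, adjusted p = 0.00012), with C3H/HeMs again near A/J, from -0.12 to 0.33. Pianp and Cap1 passed in each of the other ways of processing that were tested feature by feature. Map2, a microtubule protein of neurons, was at -1.28, -1.17, -1.22 and -0.86 in A/J and -3.24, -2.85, -3.12 and -2.85 in C57BL/6J (-1.88 ± 0.12 SE, adjusted p = 0.00019). Its C3H/HeMs levels, -1.19 to -0.79, overlapped A/J.

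Enzymes followed. Alpl, the tissue-nonspecific alkaline phosphatase that alveolar type 2 cells and neutrophils also carry, was at -1.29, -1.10, -1.82 and -1.50 in A/J and -3.41, -3.29, -3.17 and -2.91 in C57BL/6J (-1.77 ± 0.16 SE, adjusted p = 0.00161). Its next measured neighbour on the chromosome, Ece1, which activates endothelin, was also lower in C57BL/6J, by a difference of -0.68 ± 0.13 (SE, adjusted p = 0.0289). Chst8, which adds sulfate to sugars of hormones, was at 0.80, 1.05, 1.94 and 1.79 in A/J and stayed between -0.50 and -0.32 in C57BL/6J (-1.82 ± 0.23 SE, adjusted p = 0.00725). Cyp2d9, one of a family of near-identical cytochromes, was at -1.31, -1.93, -0.21 and 0.14 in A/J and -2.75, -2.65, -1.91 and -2.28 in C57BL/6J. Its groups overlapped, and its difference was -1.57 ± 0.25 (SE, adjusted p = 0.0199). Of the 31 measured genes of the xenobiotic and glutathione list, which had a median of -0.17, 0 passed, where 3.68% of all features did.

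Car3, the carbonic anhydrase of fat and muscle, was 2.84-fold lower in C57BL/6J (-1.51 ± 0.17 SE, adjusted p = 0.0046), but its 2 probes disagreed. One gave -0.18 ± 0.13 (SE, adjusted p = 0.397) and the other -2.83 ± 0.29 (SE, adjusted p = 0.00226). Fat genes had the lowest list median, -0.64 over 7 genes, with -0.72 in the control pair and 0.11 in the 1 h pair, and Car3 was the single one called. Ucp1, the uncoupling protein of brown fat, was at -1.14 ± 0.32 (SE, adjusted p = 0.0869), and Fabp4 at -0.84 with 3 of 4 pairs lower. The mean level of the 7 genes was -0.29 to 0.19 over the A/J arrays and -0.87 to -0.58 over those of C57BL/6J, with no overlap, while C3H/HeMs gave -0.93 to -0.28. Ankrd1, a muscle ankyrin repeat protein that YAP induces in other cells, was at -1.22, -0.80, -1.02 and -1.18 in A/J and -2.79, -2.63, -2.81 and -2.93 in C57BL/6J (-1.74 ± 0.21 SE, adjusted p = 0.0051). Muscle lists held 0 calls, where 3.68% of all features were called: 11 skeletal muscle genes had a median of -0.33 and 12 heart muscle genes one of -0.17. What part fat or muscle in the dissected lungs had in Car3 or Ankrd1 was not tested.

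Of the structural genes, Krt79, a keratin, was at 2.63, 2.80, 3.60 and 3.92 in A/J and 1.41, 1.85, 1.34 and 1.13 in C57BL/6J (-1.80 ± 0.29 SE, adjusted p = 0.0198), with C3H/HeMs from 3.20 to 3.68. Vcan, the matrix proteoglycan versican, was at 0.66, 0.87, 1.57 and 1.42 in A/J and -0.25, -0.48, -0.04 and -0.22 in C57BL/6J (-1.38 ± 0.14 SE, adjusted p = 0.00222). It was the 1 call among 20 fibroblast and matrix genes, whose median was -0.02; Mgp, an inhibitor of calcification, was at 1.24 ± 0.33 (SE, adjusted p = 0.0764) and Col1a1 at 0.72 ± 0.21 (SE, adjusted p = 0.0884), both higher in C57BL/6J in all 4 pairs. The 21 mitosis genes held 0 calls, where 3.68% of all features were called, with a median of -0.15. Hbb-y, an embryonic beta-like globin close in sequence to the adult genes, was at 0.81, 0.21, 0.60 and 1.30 in A/J and -0.95, -0.65, -0.64 and -1.28 in C57BL/6J (-1.61 ± 0.29 SE, adjusted p = 0.0259). Of the 7 measured red cell genes 0 passed, with a median of -0.29, and the erythroid enzyme Alas2 was at -0.06.

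The remaining named genes higher in C57BL/6J were of varied function. Abcc10, a drug efflux pump, was at 0.10, -0.29, -0.66 and -0.99 in A/J and 1.25, 1.40, 0.94 and 1.01 in C57BL/6J (1.61 ± 0.18 SE, adjusted p = 0.00415), and C3H/HeMs, from 0.87 to 1.18, lay with C57BL/6J. Zfp945, a zinc finger gene, was at -0.55, 0.01, -0.36 and -0.25 in A/J and 1.66, 1.30, 1.05 and 1.10 in C57BL/6J (1.57 ± 0.20 SE, adjusted p = 0.00705), with C3H/HeMs above A/J as well, from 1.27 to 1.74. Slc14a1, the urea transporter of red cells and vessels, was at 0.94, 0.89, 1.77 and 1.25 in A/J and 2.54, 2.37, 2.10 and 2.40 in C57BL/6J (1.14 ± 0.23 SE, adjusted p = 0.0358). Each of these 3 also passed on control and 1 h. Over 4 pairs, Abcc10 and Zfp945 were called without any 1 of the 8 arrays. The call of Slc14a1 held without the C57BL/6J 12 h array and was lost without any other 1 of the 8.

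Sox11, a transcription factor of embryonic tissues, was at 0.14, 0.03, -0.70 and -0.57 in A/J and 1.42, 0.69, 1.41 and 1.05 in C57BL/6J (1.42 ± 0.20 SE, adjusted p = 0.0138), and its 2 probes agreed at 1.58 and 1.25. C3H/HeMs, from -0.61 to -0.33, lay with A/J. Wnt4, a secreted ligand of lung mesenchyme, was at -0.20, -0.04, -0.47 and -0.29 in A/J and 1.18, 0.67, 0.96 and 0.72 in C57BL/6J (1.13 ± 0.19 SE, adjusted p = 0.022). Vnn3, a vanin related to pantetheinase, was at -0.42, -1.09, -1.14 and -0.77 in A/J and 0.14, 0.43, 0.60 and 0.38 in C57BL/6J (1.24 ± 0.19 SE, adjusted p = 0.0174). On control and 1 h Sox11, Wnt4 and Vnn3 did not pass (limma adjusted p = 0.0506, 0.0712 and 0.0929). Anxa8, a calcium-dependent membrane-binding annexin, was at -0.29, -0.20, -0.67 and -1.05 in A/J and 0.52, 0.69, 0.35 and 0.27 in C57BL/6J (1.01 ± 0.13 SE, adjusted p = 0.00667). Its relative Anxa10, the vesicle protein Syt5 and the enamel matrix gene Ambn, at differences of 1.01, 1.06 and 1.04, passed over 4 pairs (adjusted p = 0.0259, 0.0445 and 0.0421) but not on control and 1 h (adjusted p = 0.126, 0.2 and 0.241). These 3 also lost their call when exact zeros were set to missing.

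Among the 30 genes of the naming rule, 19 passed on control and 1 h, 13 of the 15 lower and 6 of the 15 higher in C57BL/6J, with the spread of all 12 arrays. The 11 that did not were Sox11, Chil3, Wnt4, Vnn3, Trim30d, H2-Eb1, Anxa10, Syt5, Ambn, Cyp2d9 and Hbb-y. Their limma adjusted p there ran from 0.0506 for Sox11 to 0.241 for Ambn. Fitted on the control and 1 h arrays with no others, 3 of the 30 passed, namely Pianp, Cap1 and Alpl. Of the 12 called list members outside the 30, Apod, Cd22, Hebp1 and Vcan passed on control and 1 h. The other 8 did not (Ngp, Ifi203, Mrc1, Cd59a, Cd68, Fabp1, Il18 and Ccl9), with adjusted p from 0.059 to 0.231. Their direction there was the same, which follows from 4 pairs in 1 direction. Without 1 array, 14 of the 30 were always called (Hc, Abcc10, Zfp945, Anxa8, Pianp, Jchain, Cap1, Map2, Chst8, Alpl, Ankrd1, Pik3ap1, Alad and Car3), and the other 16 lost their call without at least 1. With a block for the set of late A/J and C3H/HeMs arrays 12 of the 30 passed, 10 of them among these 14, and Abcc10, Chst8, Ankrd1 and Car3 did not. The number called of 30 was 20 without the A/J control, 26 without A/J 1 h, 16 without A/J 12 h and 18 without A/J 72 h. For C57BL/6J it was 21, 26, 18 and 15. Of the 12 list members, Hebp1 and Vcan were called without any 1 array, as were Ifi207, Lst1 and Sorl1, which no list holds. C3H/HeMs was nearer to A/J than to C57BL/6J for 13 of the 15 lower and 9 of the 15 higher genes. Over all 322 calls it was nearer to A/J in 67.1%, and over all features in 61.1%. The late C3H/HeMs arrays went with the late A/J arrays, and what part this had in the nearness was not tested. Of 5820 pairs of measured genes next to each other on a chromosome, both were called in 8 (0.137%). In 5 of these both had the same direction, namely Ifi207 with Ifi203, Ncf4 with Csf2rb2, Alpl with Ece1, Ppcs with Guca2a and Smr3a with Ambn. The rest went opposite ways, namely Sgk1 with Raet1e, Kiz with Xrn2 and Ambn (1.04) with Jchain (-2.12). Whether 8 such pairs exceed what calls placed at random would give was not tested. Ncf4, an oxidase subunit of phagocytes, and Csf2rb2, a cytokine receptor chain, differed by -0.77 and -0.78.

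Several lung cell types held no call, where 3.68% of all features were called. For lists this short 0 calls is near that share and is not a result about the cell type. For the 8 alveolar type 2 and club cell genes the median was 0.02 in the control pair, 0.23 at 1 h, -0.76 at 12 h and -0.50 at 72 h, a change of direction between early and late pairs that all features shared in part (0.02, 0.02, -0.17 and -0.11). Sftpc, surfactant protein C, differed by -0.35 ± 0.40 and Sftpd, surfactant protein D, by 0.23 ± 0.15 (SE). Endothelium, with 9 genes and a median of -0.18, held 0 calls, and its genes Tek and Cdh5 were lower in 4 of 4 pairs at -0.38 and -0.31 without passing. Alveolar type 1 cells (3 genes), ciliated cells (2), mast cells and eosinophils (5), class I antigen presentation (6) and mitochondrial redox (9) also held 0 calls, with medians of -0.15, 0.14, -0.29, -0.07 and -0.27. Smooth muscle, with 8 genes, had the median 0.15, and T and NK cells, with 17 genes, -0.09. Among those, Cd3d, of the T cell receptor complex, was at -0.47 and Gzma, a granzyme of killer cells, at 0.67, each in the same direction in 4 of 4 pairs and neither past the threshold (adjusted p = 0.0813 and 0.0764).

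**Figure D3:**
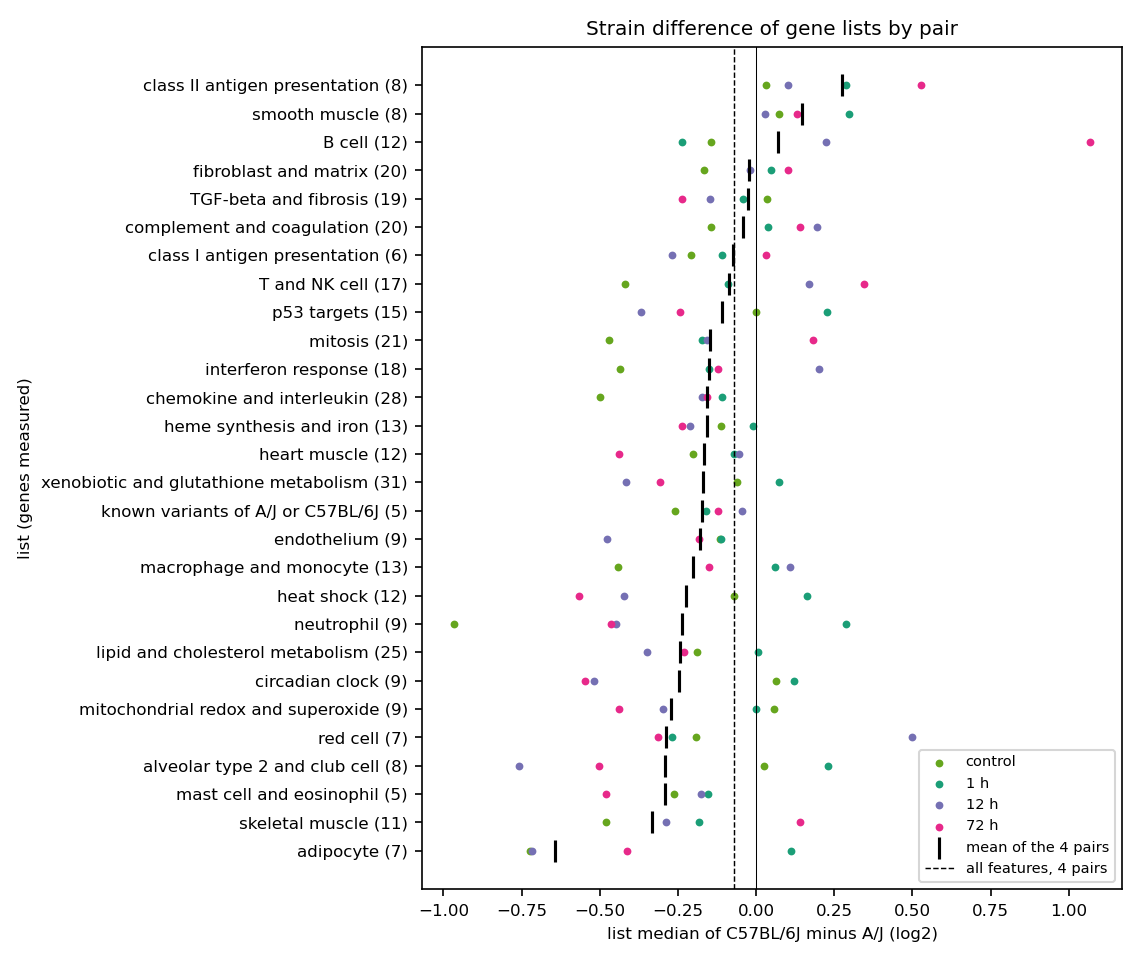
Each row is a gene list with at least 5 measured genes, and the x axis is the median of its C57BL/6J minus A/J differences (log2), by pair (coloured points) and for the mean of the 4 pairs (black bars). The dashed line is the median of all features, -0.07; list medians run from -0.64 for adipocyte genes to 0.28 for class II antigen presentation, and the pairs of a list spread widely, as for B cell genes from -0.24 to 1.07.

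Lists tied to the radiation response and to fibrosis held no call. Over all features 3.68% were called, so 0 calls in lists this short says little about them. Of 15 p53 targets, genes switched on by DNA damage, 0 passed, and their median was 0.00 in the control pair, 0.23 at 1 h, -0.37 at 12 h and -0.24 at 72 h. Cdkn1a, which halts the cell cycle, differed by -0.01, 0.62, -0.33 and -0.20 in those pairs, with mean levels of 2.84 in A/J and 2.86 in C57BL/6J. Tnfrsf10b, a death receptor, differed by -0.11, -0.27, -1.02 and -1.17, a mean of -0.64 ± 0.18 (SE, adjusted p = 0.087). The 19 genes of TGF-beta and fibrosis, with a median of -0.03, and the 12 of heat shock, with -0.22, held 0 calls, as did the 9 of the circadian clock, with -0.25. Lipid and cholesterol metabolism, with 25 genes and a median of -0.24, held 2 lower calls, Apod and Fabp1 (-0.76 ± 0.15 and -0.79 ± 0.17 SE, adjusted p = 0.0319 and 0.0445), a lipid carrier and a fatty acid binding protein.

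Whether the strain difference itself changed after irradiation was tested as an interaction. Between irradiated and control arrays it differed for 0 features (0.0%) by limma after adjustment, with 319 at an unadjusted p under 0.05; the control side of this test is 1 pair. The gene with the largest shift among the 5 smallest p was Saa3, an acute-phase protein. Saa3 was at 0.63, -3.24, 0.39 and -1.99 in A/J and -2.96, -3.40, -0.70 and -2.69 in C57BL/6J, so that the control pair differed by -3.58 and the 1 h pair by -0.16 (interaction 2.93 ± 0.61 SE, adjusted p = 0.865). Nefm, Cplx2, Crisp2 and Creb3l4, the other 4, had shifts of 2.08, -1.83, 1.79 and 1.80 at the same adjusted p. Crisp2 was at the lower limit of the ratio on 3 of the 8 arrays.

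Between the late (12 h and 72 h) and the early arrays the strain difference changed for 1338 features (15.3%), 594 upward and 744 downward, 27 of them among the 322, and for 44 to 665 when any 1 of the 8 arrays was left out. The late pairs differ from the early ones both in time after irradiation and in the set of A/J arrays that stands apart, which cannot be told apart here. The 5 named genes with the smallest p were Cep72, Cacng4, Prr30, Akr1c18 and Prss16, with shifts of 3.24, 2.45, 3.55, 3.60 and 2.15. Cep72, a centrosome protein, was at -1.24, -1.36, -4.00 and -4.38 in A/J and between -2.88 and -2.35 in C57BL/6J. Its early difference of -1.48 and its late one of 1.75 nearly cancel, and over 4 pairs it did not pass (0.14 ± 0.58 SE, adjusted p = 0.901). Akr1c18, a progesterone-metabolising reductase, reached the lower limit of the ratio on both late A/J arrays. The spread of the differences was wider in the late pairs, with an SD over features of 0.52 in the control pair, 0.47 at 1 h, 0.78 at 12 h and 0.70 at 72 h.

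In skin, the same contrast on other arrays called 31 features (0.354%), 12 higher and 19 lower in C57BL/6J. Of the 322 lung calls 13 were among them, which is 4.04% of the lung list and 41.9% of the skin list, and all 13 had the same direction. Pianp (-2.12 ± 0.19 SE in skin, adjusted p = 0.00319), Cap1 (-1.80 ± 0.28, 0.0447), Car3 (-3.06 ± 0.30, 0.00368) and Vcan (-1.31 ± 0.21, 0.0463) were lower in both tissues, and Zfp945 (1.61 ± 0.16, 0.00368) and Slc14a1 (1.53 ± 0.21, 0.037) higher. The skin mean had the lung direction for 61.8% of the 322 and for 51.7% of the features not called in lung. Alad in skin was at -1.44 ± 0.27 (SE, adjusted p = 0.0763).

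For 47 features (0.537%) the strain difference was not the same in lung and skin by a test of the difference, 30 of them among the 322. This count was 5 without the C57BL/6J 12 h or 72 h array, 7 to 18 without the C57BL/6J control or any 1 A/J array, 114 without C57BL/6J 1 h, 29 with exact zeros missing and 88 after quantile normalization. Skin RNA carried Cy5 and lung RNA Cy3, so tissue and dye cannot be told apart in this test. Hc, higher by 1.71 in lung, differed by 0.16 ± 0.27 (SE) in skin (adjusted p of the difference 0.0436), and H2-Eb1 differed by 1.07 in lung and -0.54 ± 0.27 in skin (0.0436). In skin Hc lay far below the reference in both strains, with mean levels of -2.97 in C57BL/6J and -3.13 in A/J. Anxa8 was at 1.01 in lung and -0.46 ± 0.24 in skin (0.0366), Qpct, which closes the ends of peptides, at 0.72 and -0.58 ± 0.21 (0.0372), and Ttc39a at 0.80 and -0.45 ± 0.21 (0.0436). Skin levels of Anxa8, from 5.47 to 6.70, came close to the upper limit of the ratio, 6.64 before centring. On the lower side Ankrd1, at -1.74 in lung, was at 0.64 ± 0.27 in skin (0.00874), and Alpl, at -1.77 in lung, at 0.29 ± 0.18 (0.00173). Mean skin levels of Ankrd1 were also far below the reference, at -3.52 in C57BL/6J and -4.16 in A/J. Slc15a2, a peptide transporter, was at -0.67 in lung and 1.45 ± 0.37 in skin (0.0412), Adck5 at -1.20 and 0.75 ± 0.32 (0.0458) and Chst8 at -1.82 and -0.02 ± 0.20 (0.0242).

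**Figure D4:**
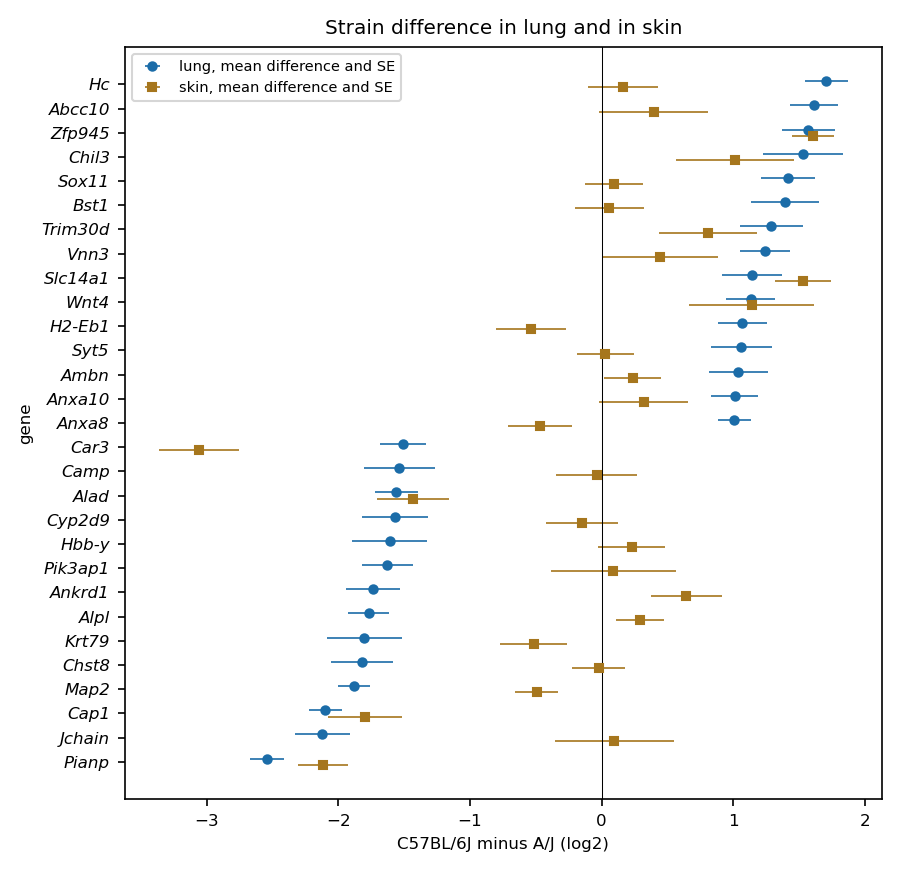
Each row is 1 of 29 of the 30 genes, with the C57BL/6J minus A/J difference (log2) in lung (circles) and in skin (squares); bars are standard errors of the fits. Pianp, Cap1, Car3, Zfp945 and Slc14a1 pass in both tissues, while Hc, H2-Eb1, Anxa8, Ankrd1, Alpl, Chst8 and Map2 differ between the tissues. Krt79 was at the upper limit of the ratio on every A/J skin array, so its skin difference is not exact.

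Of the 322 calls 156 had no gene symbol in the platform annotation, including the largest differences of all. Probe 7612, at 2.72, 2.30, 3.12 and 2.94 in A/J and -0.06, -0.10, -0.13 and -1.49 in C57BL/6J, had the largest, -3.21 ± 0.52 (SE, adjusted p = 0.0203). Its C57BL/6J control and 12 h values are deposited ratios of exactly 0, and with these missing the difference did not pass (-3.56 ± 0.69 SE, adjusted p = 0.0562). Probe 9419 was at 0.28, 0.42, 0.40 and 0.57 in A/J and 2.95, 2.90, 2.90 and 2.88 in C57BL/6J, a difference of 2.49 ± 0.11 (SE, adjusted p = 1.9e-05) that was 2.97 ± 0.18 in skin (adjusted p = 0.000206). C3H/HeMs, from 0.64 to 0.94, lay nearer to A/J. Which transcripts these probes measure is not given by the tables used here.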

How the data were processed

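Every value was a log10 ratio of Cy5 over Cy3 as deposited by the authors, limited to ±2, which they made with Agilent Feature Extraction per the submitters' processing notes; no source used here gives its version, background or dye steps. Lung RNA carried Cy3 per the labels, so signs were turned to read lung over reference, ratios multiplied by 3.32 to log2 and arrays centred on their medians. Skin RNA carried Cy5, the other way round, and skin signs were kept. Probes of a gene were averaged (9275 probes, 8750 features, 5908 with a symbol from the platform annotation, checked by Entrez ID against GRCm38.p6 names, in which 0 symbols changed). Spot intensities were not used here, so detection is unknown.

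Strains were compared with limma 3.58.1 in R 4.3.3 on the 12 lung arrays with strain and time as factors (6 residual degrees of freedom), Benjamini-Hochberg adjustment over all features and a threshold of 0.05. Strain by late, strain by irradiation and lung minus skin were tested in like fits. On simulated data 73% of 2-fold and 92% of 4-fold differences were recovered with 6 false calls, and 38% and 80% on control and 1 h with 8. The simulated noise was normal and independent between arrays, without exact zeros or a late set of arrays that stands apart. These shares therefore need not hold for the real arrays. Time pairs the arrays by design; deviations of A/J and C57BL/6J arrays of one time correlated at -0.067 to 0.0068, those of A/J and C3H/HeMs at 0.301 to 0.367 and those of C57BL/6J and C3H/HeMs at -0.014 to 0.149.

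The members, the 30 gene lists and the naming rule (the 15 largest called differences each way with a full gene name and 4 pairs in one direction, the 3 list members of smallest p, measured known variants, the 5 smallest p of interactions, the 5 largest lung minus skin differences each way) were chosen with earlier results of these data known. Unnamed probes, neighbours, Ager, Sftpc, Sftpd, Cdkn1a, Alas2, Cd74, Ms4a1, Cd79a, Cd79b, Fabp4, Mpo, Lcn2, Ltf, S100a8, Ifi207, Lst1 and Sorl1 stand outside this rule, chosen after their values were seen. Of the 30 genes with the largest differences 1 is counted but not reported here. Lists were described by counts and medians, without a test. Alternatives for the control and 1 h result were chosen after seeing the data.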

Additional observations from a re-analysis of the deposited data

Results flagged for a closer look

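The strain difference (C57BL/6J minus A/J, log2) at 12 h and 72 h minus that at control and 1 h was past the threshold in limma for 7 of the 30 named genes: 1.35 for Bst1, 1.16 for Trim30d, 1.27 for Camp, 0.77 for Alpl, -0.73 for Alad, -0.98 for Chst8 and -1.44 for Krt79. Bst1, Trim30d, Alad, Chst8 and Krt79 thus differed more on the late arrays, and Camp and Alpl less. Time after irradiation and the set of late A/J arrays cannot be told apart in these values.

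The strain difference in lung minus that in skin was past the threshold for 7 of the 30: 1.61 for H2-Eb1, 1.55 for Hc, 1.47 for Anxa8, -1.39 for Map2, -1.80 for Chst8, -2.06 for Alpl and -2.38 for Ankrd1. For each of these 7 the skin difference alone was not past the threshold.

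The Chil3 level of 1.10 on the A/J 1 h array lay apart from the other 3 A/J arrays by Dixon's test. It was the 1 such array in 60 groups tested, where chance gives about 1 in 20.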

How the results depend on the processing

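Against 322 features, 17 passed in a fit of only the 8 arrays, 40 with a block for the set of late A/J and C3H/HeMs arrays, 11 on the control and 1 h arrays fitted alone, 177 with exact zeros missing and 140 with a 2-fold minimum. Without the time as replicate block 202 passed, 187 of them among the 322, and the calls of Chil3, H2-Eb1, Anxa8 and Cyp2d9 were lost. Limit values missing, no centring, another prior and single probes gave 288 to 344. Quantile normalization gave 281, of which 43.1% were higher in C57BL/6J in place of 53.1%, and setting exact zeros to missing gave 35.6%; scaling to one median absolute deviation gave 237 with 46.4%. Leaving out 1 array gave 42 to 384: 42 without C57BL/6J 72 h, 58 without A/J 12 h, 60 without C57BL/6J 12 h, 69 without A/J 72 h, 106 and 85 without the control array of A/J and of C57BL/6J, 190 without A/J 1 h and 384 without C57BL/6J 1 h. There were 38 features called without any 1 array, 23 with a full gene name, among them Hc, Abcc10, Zfp945, Anxa8, Pianp, Jchain, Cap1, Map2, Chst8, Alpl, Ankrd1, Pik3ap1, Alad and Car3 of the 30. None of the 30, which have 1 direction in all 4 pairs by the naming rule, reversed it under any alternative run. Genes not called over 4 pairs could have the opposite sign over control and 1 h alone. Among these were Cep72, Akr1c18, Cacng4, Prr30, Prss16, Nefm, Creb3l4, H2-Ea, Sftpc, Ms4a1, Cd79a, Cd79b, Mpo, Alas2 and Cd74. The fit of only the 8 arrays kept 8 of the 30 and the control and 1 h arrays alone kept 3.

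The late minus early count of 1338 was 44 to 665 without 1 array. The irradiated minus control count of 0 was 0 to 14, with 14 without A/J 1 h, and could not be fitted without either control. The lung minus skin count of 47 was 29 with exact zeros missing, 88 after quantile normalization and 5 to 114 without 1 array. The control and 1 h count of 248 was 6 to 217 without 1 array, and 6 to 16 without an early one, where the lone early array of the strain is assumed to vary like the others. With 1 pool per strain and time, the number of arrays limits every value.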

Other observations

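Some single genes outside the lists also differed between the strains over the 4 pairs; they were chosen after their values were seen and are no group. Slc13a4, a sulfate transporter, was lower in C57BL/6J, at 0.80, 0.70, 1.36 and 1.07 in A/J and 0.05, -0.52, -0.05 and -0.29 in C57BL/6J (-1.19 ± 0.13 SE, limma adjusted p = 0.00415). Cftr, the chloride channel of airway epithelium, differed by -0.78, and the efflux pump Abcc3 by -0.79. Ap1s3, an adaptor subunit of vesicle sorting, was at 0.81, 1.04, 1.25 and 1.41 in A/J and -0.28, -0.09, -0.32 and 0.07 in C57BL/6J (-1.28 ± 0.14 SE, adjusted p = 0.00415).

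Hddc3, a hydrolase, was at -0.62, -0.43, -0.37 and -0.38 in A/J and -2.01, -1.99, -1.97 and -1.72 in C57BL/6J (-1.47 ± 0.10 SE, adjusted p = 0.000252), and its skin difference was -1.25 ± 0.22 (adjusted p = 0.058). Fjx1, a secreted growth regulator, was at 0.69, 1.01, 0.92 and 1.29 in A/J and -0.14, -0.30, 0.07 and 0.12 in C57BL/6J (-1.04 ± 0.12 SE, adjusted p = 0.00415), with C3H/HeMs below both, from -0.86 to -0.37. Wnt5a and Wif1, a ligand and an inhibitor of Wnt signalling, went opposite ways, at 0.87 and -0.99.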
